A study of Homo sapiens and Mus musculus with 61 samples.

Results

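The second guide RNA against HS4, labelled sgHS4-sg2, was compared with the non-targeting guide sgGal4 in K562 cells. HS4 is one of the DNase I hypersensitive sites of the beta-globin locus control region of human erythroid cells, and sgGal4 is the labelled control guide. All 6242 regions of 300 bp in the sgHS4-sg2 table were taken, of 143198 regions summed over the 17 tables of the series. The comparison used 6 of the 61 samples of the series, 2 libraries with sgHS4-sg2 and 4 with sgGal4. All 6 come from K562, a human leukaemia line with erythroid features, and in all of them an inactive, biotinylated Cas9 (dCas9) was captured on streptavidin beads and its DNA sequenced. The guide is the labelled difference between the groups. The labels give the replicate numbers and do not say whether libraries came from separate cultures, nor whether the cells were a clone or a pool, so p-values measure only the spread between these libraries, which may be technical.

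The locus control region lies upstream of the embryonic, fetal and adult beta-like globin genes and raises their transcription in red cell precursors. Its hypersensitive sites hold binding motifs for erythroid factors such as GATA1 and NF-E2. An inactive Cas9 binds DNA where its guide pairs with the sequence and an NGG motif, the PAM, follows, so the DNA that comes down with it maps the places occupied by that guide. A guide without a target in the genome shows what the beads and the Cas9 protein bring down by themselves.

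The region at HS4 carries the main result, and its sequence is shown for the erythroid motifs inside it. Capitals mark matches to AGATAG and TGATAG, both GATA-factor strings, and to TGANTCA, the core of NF-E2 and AP-1 sites. The plus strand of hg19 at chr11:5309258-5309557, 5′ to 3′, reads:
HS4 target region: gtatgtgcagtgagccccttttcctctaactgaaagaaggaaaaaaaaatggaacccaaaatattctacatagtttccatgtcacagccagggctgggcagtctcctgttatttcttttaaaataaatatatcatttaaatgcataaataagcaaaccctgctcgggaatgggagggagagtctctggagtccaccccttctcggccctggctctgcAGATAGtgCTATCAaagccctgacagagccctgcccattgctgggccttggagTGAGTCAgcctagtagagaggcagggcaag
Both strands were searched, and CTATCA is TGATAG read on the minus strand. AGATAG starts at base 218, TGATAG at base 226 and TGANTCA at base 271 of the region. The string AGATAA had no match, nor did the string TGATAA or the E-box CANNTG. Of all listed regions, 30.9% held at least 1 of these 4 GATA strings, 7.32% held TGANTCA and 2.76% held both kinds. These are matches of letters and not measured factor binding.

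Of all listed regions the HS4 target was the highest with sgHS4-sg2, and it was the 1 region whose centre lay within 1.5 kb of HS4. It lies in introns of long HBE1 and HBG2 transcript models, 13769 bp from the nearest annotated start of a protein-coding gene, OR51B4, an olfactory receptor gene. Whole read numbers were recovered from the log2 levels, as described with the processing. The guide libraries held 1128 and 240 reads there, and the sgGal4 libraries held 0, 1, 3 and 1. Both guide libraries stood far above every control.

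As a share of the reads in the listed regions, the target took 2.15% of replicate 1 (95% exact Clopper-Pearson interval 2.03 to 2.28, 52402 reads in all) and 0.698% of replicate 2 (0.613 to 0.792, 34377 reads). The intervals do not overlap, so the libraries differ by more than counting error, the only error that these intervals cover. For sgGal4 the shares were 0.00113% in replicate 2, 0.0340% in replicate 3 and 0.0117% in replicate 4. In replicate 1, 0 of 49706 reads allow a share of up to 0.00604% by a limit of 3 counts, and the exact upper bound of the kind given for the guide libraries is 0.00742%.

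On the deposited log2 scale the guide libraries were at 10.14 and 7.97 and the sgGal4 libraries at 0.22, 0.57, 4.34 and 3.65. The values above 3 in sgGal4 replicates 3 and 4 stand for 3 reads and 1 read, because 0 reads was placed at 2.81 and 2.87 in these shallow libraries, against 0.22 and -0.39 in sgGal4 replicates 1 and 2. The log2 ratio, here the log2 of the mean linear guide level over the mean linear sgGal4 level, was 6.28 (SD of the log2 levels of the guide libraries 1.53, n = 2). The difference of the mean log2 levels was 6.86 with a limma standard error of 1.13, and the limma adjusted p was 0.00578. A region at HS4 is listed in 3 of the 17 tables, and how the regions were chosen is not given. If it was listed here because the guide was high, it had to differ, and this p is then no independent test. Fits with 1 guide library take their spread from the sgGal4 libraries and limma's prior, and the lone library is assumed to vary like them. With replicate 2 alone as the guide library the ratio was 4.82 and limma's adjusted p was 0.0728, and with replicate 1 alone they were 6.99 and 0.0165. On recovered reads with a pseudocount of 1 the ratio was 6.65 and limma's adjusted p 0.0706.

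The next region in order was far lower. It reached a log2 ratio of 2.24, a gap of 4.04 below the target, and outside the target no region held more than 105 reads in guide replicate 1 or 72 in replicate 2. The target ranked first by ratio in the 16 fits run, and first by reads in both guide libraries. The plot of reads per library shows the target apart from every other named region.

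**Figure D1:**
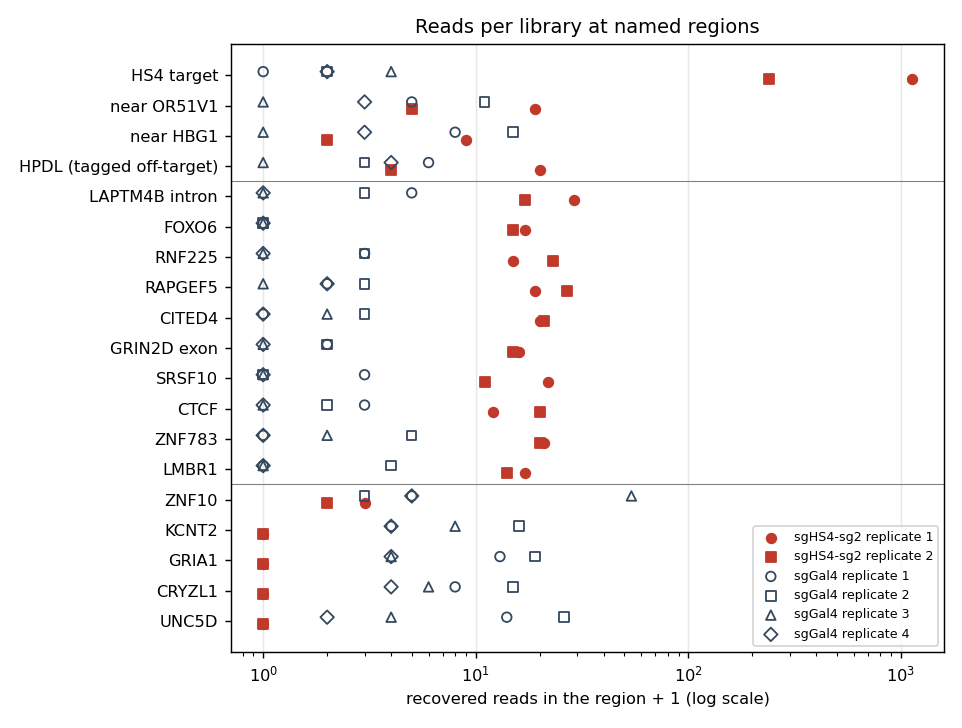
Recovered reads plus 1 (log scale) in each library at the HS4 target, the other regions within 100 kb, the tagged off-target region, the 10 highest and the 5 lowest regions elsewhere, named by the gene they lie in or the nearest start. Filled red symbols are sgHS4-sg2 libraries and open symbols are sgGal4 libraries; at HS4 the guide libraries held 1128 and 240 reads and the controls at most 3.

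Around HS4 few regions were listed. The table lists 2 other regions within 100 kb of the target, and neither was called. The first (chr11:5225986-5226285) is intergenic, and its nearest start is that of the olfactory receptor gene OR51V1, 4223 bp away. It held 18 and 4 guide reads and 4, 10, 0 and 2 sgGal4 reads, so the groups overlap. Its log2 ratio was 0.52 with a limma adjusted p of 0.552. The second (chr11:5273371-5273670) lies 2433 bp from the start of the fetal gamma-globin gene HBG1. It held 8 and 1 guide reads against 7, 14, 0 and 2, with a log2 ratio of -0.81 and a limma adjusted p of 0.291. No other hypersensitive site of the locus control region and no globin promoter is listed in this table. Within 5 Mb of the target, 30 other regions had log2 ratios from -2.83 to 1.77, with 2 called higher and 6 lower by the rule given next.

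**Figure D2:**
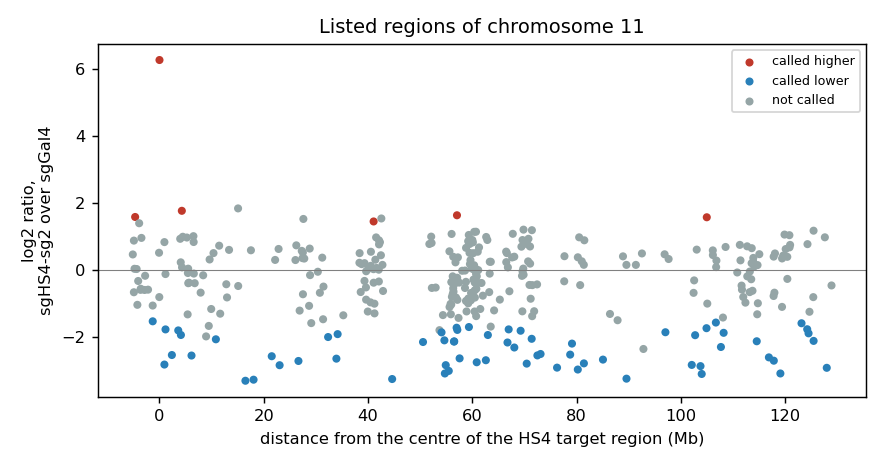
Log2 ratio of every listed region of chromosome 11 against its distance from the centre of the HS4 target region (Mb), coloured by call. The target at 6.28 stands alone; the other 351 regions lie between -3.31 and 1.84.

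Elsewhere in the genome more regions were lower than higher with the guide. A region was called where the log2 ratio was at least 1 in size and limma's adjusted p was below 0.05. By this rule 33 regions, 0.529% of all, were higher with the guide and 1369, or 21.9%, were lower. The median over all regions was -0.38. The level given to 0 reads was 0 and 0.93 in the guide libraries, but 2.81 and 2.87 in sgGal4 replicates 3 and 4. It therefore weighs downward on the ratios of regions with few reads. The median was -0.07 on recovered reads plus 1 and -0.29 without sgGal4 replicates 3 and 4. Without a p limit, the ratio reached 1 in 6.33% of regions and fell to -1 or below in 34.9%. Both guide libraries stood above all 4 controls in 8.47% of regions and below all 4 in 35.5%. Of the calls, 2.35% were higher, and this split became 14.5% with column medians subtracted and 37.9% without the shallow sgGal4 replicates 3 and 4.

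These counts changed with the libraries kept and with the scale. Without guide replicate 1, again with the spread taken from sgGal4, both became 0 by limma, with 101 regions at or above a ratio of 1 when the unadjusted limma p was held to 0.05. In the fit as reported this looser rule took 200 regions, or 3.2%. Without guide replicate 2, 2 regions were higher and 928 lower. The count of higher regions was 7 without sgGal4 replicate 1 and 7 without replicate 2, 67 without replicate 4, and 908 without replicates 3 and 4 together. On recovered reads with a pseudocount of 1 limma called 0 in either direction, although 531 regions passed the looser rule. The plot of calls by setting shows both counts for each alternative.

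**Figure D3:**
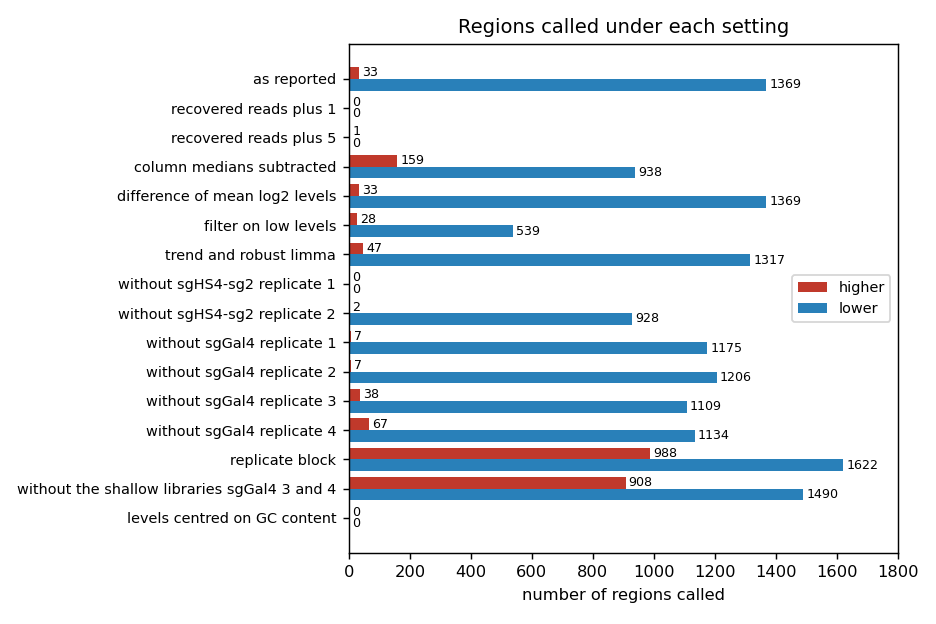
Number of regions called higher (red) and lower (blue) with sgHS4-sg2 than with sgGal4 in the fit as reported and under each alternative. The higher calls range from 0 to 988 and the lower calls from 0 to 1622.

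The 32 higher regions outside the target were mostly gene starts rich in CpG. Their log2 ratios ran from 1.45 to 2.24, their guide libraries held between 7 and 38 reads, and both guide libraries stood above all controls in all 32, which the call makes likely. In 25 of them sgGal4 replicates 3 and 4 both held 0 reads. Of the 33 higher regions with the target, 22 (66.7%) lay within 1 kb of a start, against 27.9% of all listed regions and 3.80% of the lower ones. The median GC content was 74.7% in the higher, 55.3% in all and 38.0% in the lower regions. The median number of CpG dinucleotides was 41, 8 and 2. The target itself, with 47.3% GC and 2 CpG, was the lowest in GC of the higher regions.

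The highest region outside the target (chr8:98861831-98862130) lies in an intron of LAPTM4B, which encodes a lysosomal membrane protein. The guide libraries held 28 and 16 reads there and the sgGal4 libraries 4, 2, 0 and 0, with a log2 ratio of 2.24 (SD 0.20, n = 2; limma adjusted p = 0.0153). At the promoter of FOXO6, a forkhead factor gene (chr1:41827488-41827787), the reads were 16 and 14 against 0 in every control. Its log2 ratio of 2.24 (SD 0.23, n = 2; limma adjusted p = 0.0416) is therefore set by the level given to 0 reads. At the promoter of RNF225, a RING finger gene (chr19:58907707-58908006), the reads were 14 and 22 against 2, 2, 0 and 0, with a ratio of 2.20 (limma adjusted p = 0.0228). At LAPTM4B and RNF225, sgGal4 replicates 3 and 4 held 0 reads, placed at log2 levels of 2.81 and 2.87. These levels were above those of sgGal4 replicates 1 and 2, so the level given to 0 reads weighs on these ratios too. In all 3 regions the guide libraries were high together.

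The other high regions were alike in size. RAPGEF5, which encodes a guanine nucleotide exchange factor (chr7:22396477-22396776), held 18 and 26 reads against 1, 2, 0 and 1. CITED4, a gene for a transcriptional coactivator (chr1:41327414-41327713), held 19 and 20 against 0, 2, 1 and 0. An exon of the NMDA receptor gene GRIN2D (chr19:48945862-48946161), with GRWD1 as the nearest start, held 15 and 14 against 1, 1, 0 and 0. Their log2 ratios were 2.19, 2.11 and 2.04, and limma's adjusted p lay between 0.0321 and 0.0446.

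At the start of SRSF10, a splicing factor gene (chr1:24306494-24306793), the reads were 21 and 10 against 2, 0, 0 and 0. Its ratio of 2.04 had a limma adjusted p of 0.0547 and did not pass. ZNF783, a zinc-finger gene (chr7:148959166-148959465), held 20 and 19 reads against 0, 4, 1 and 0, and LMBR1, whose introns hold a limb enhancer of SHH (chr7:156685739-156686038), held 16 and 13 against 0, 3, 0 and 0. Both had a log2 ratio of 2.01, with limma adjusted p of 0.0486 and 0.0390. By smallest p, the higher regions outside the target were those of LAPTM4B, CTU2, RNF225, PTPRU and STAU2. At CTU2, a tRNA thiolation gene, the reads were 18 and 18 against 4, 6, 0 and 0 (log2 ratio 1.85, limma adjusted p = 0.0166). The regions of PTPRU, a receptor phosphatase gene, and STAU2, an RNA-binding protein gene, had log2 ratios of 1.65 and 1.86 and limma adjusted p of 0.0274 and 0.0275.

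Many of the lowest regions were poor in GC and held few guide reads. At an intergenic region of chromosome 5 (chr5:152767666-152767965), with the AMPA receptor gene GRIA1 nearest, the guide libraries held 0 and 0 reads and the sgGal4 libraries 12, 18, 3 and 3. The log2 ratio was -3.59, with a limma adjusted p of 0.00578. At an intron of HSPH1, a heat shock protein gene (chr13:31726313-31726612), the reads were 0 and 0 against 12, 19, 3 and 2, with a ratio of -3.51 (limma adjusted p = 0.00578). All 4 controls were above both guide libraries in both regions. KCNT2 (-3.62), CRYZL1 (-3.57) and UNC5D (-3.52) marked the other called regions among the 5 lowest, all with 0 guide reads, and ATXN2 (-3.48) and STOX2 (-3.44) those among the 5 smallest p. The lowest ratio of all, -3.81 at an exon of the zinc-finger repressor gene ZNF10, held 2 and 1 guide reads against 4, 2, 53 and 4 and did not pass (limma adjusted p = 0.257). Its GC content was 44.7%, and its groups overlap. Over the 1369 lower regions the median was 1 read in each guide library and 9 and 15 reads in sgGal4 replicates 1 and 2. In sgGal4 replicates 3 and 4 it was 1 read. Of these regions 268 held 0 reads in both guide libraries, so their guide level is the one given to 0 reads.

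The contrast in base composition can be read from 2 of these regions, one called higher and one lower, shown on the plus strand of hg19 with CpG dinucleotides in capitals. The CTCF region (chr16:67596141-67596440) lies at the start of the gene for the insulator-binding protein CTCF and holds 46 CpG. The HSPH1 region (chr13:31726313-31726612) holds 0.
CTCF region: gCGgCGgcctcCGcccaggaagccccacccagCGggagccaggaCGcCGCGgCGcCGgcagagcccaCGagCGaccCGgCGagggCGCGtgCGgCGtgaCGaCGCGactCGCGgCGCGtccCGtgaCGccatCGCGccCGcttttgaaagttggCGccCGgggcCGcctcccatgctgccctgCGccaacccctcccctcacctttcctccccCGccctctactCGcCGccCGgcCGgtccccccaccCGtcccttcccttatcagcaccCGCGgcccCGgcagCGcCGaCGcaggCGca
HSPH1 region: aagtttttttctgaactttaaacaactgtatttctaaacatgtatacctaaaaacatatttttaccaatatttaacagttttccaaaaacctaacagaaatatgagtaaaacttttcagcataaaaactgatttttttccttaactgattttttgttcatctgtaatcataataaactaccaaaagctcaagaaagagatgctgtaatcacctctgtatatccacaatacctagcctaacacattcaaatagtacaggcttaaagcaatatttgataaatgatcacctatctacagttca

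The ratio followed GC content over the whole table. Across the 6242 regions, which share the same 6 libraries, Spearman's rho between the log2 ratio and GC content was 0.72, given as a description. With the regions in 5 classes of about equal size by GC, the median ratio was -2.11 in the class poorest in GC, -1.01, -0.30 and 0.11 in the next, and 0.55 in the richest. In the poorest class 69.3% of regions were called lower, and in the richest 0.401%. The mean GC content of the reads was 59.7% and 61.9% in the guide libraries and between 52.7% and 53.2% in the sgGal4 libraries. Within promoters rho was 0.47, and within exons, introns and intergenic regions it was 0.66, 0.68 and 0.69.

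The HS4 target departed from this trend. Of 1397 other regions with a GC content within 5 percentage points of it, the log2 ratios ran from -3.81 to 1.34 with a median of -0.89, and limma called 0 higher and 341 lower. With the levels of each library centred on GC content by a smooth curve, an alternative chosen after seeing the data, the target had a ratio of 6.54 and a limma adjusted p of 0.0521, and no region was called in either direction. By the looser rule on the unadjusted limma p there were then 98 higher regions. The part of GC content in the other calls was not tested further.

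**Figure D4:**
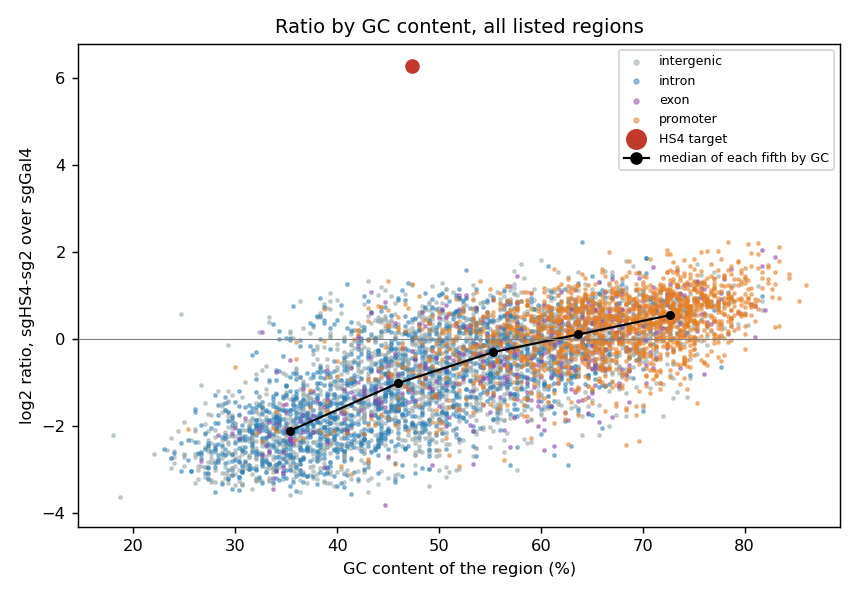
Log2 ratio of sgHS4-sg2 over sgGal4 for all 6242 regions against GC content (%), coloured by the kind of region, with the medians of 5 GC classes in black. The medians run from -2.11 to 0.55, and the HS4 target at 47.3% GC and 6.28 lies outside the cloud.

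By kind of region, the median log2 ratio was 0.36 in 1741 promoters (within 1 kb of a start), -0.27 in 444 exon regions, -1.07 in 1563 intron regions and -0.77 in 2494 intergenic regions. Promoters held 36.7% and 41.0% of the reads of the guide libraries and between 22.1% and 25.9% of those of the sgGal4 libraries. The groups do not overlap in this share. With 2 libraries against 4, an exact permutation test could not reach 0.05, and none was run.

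How the authors chose the regions to list is not given in the sources used here, and it bears on these counts. At identical coordinates, 1661 regions stand in all 17 tables, 1701 in 2 to 16 tables and 2880 in this table alone. The median log2 ratio was -2.06, -0.82 and 0.40 in these classes. Of the lower calls, 1131 were in all tables, 238 in some and 0 in this table alone, and of the higher calls 32 were in this table alone and 1 in some others. By coordinates that need only overlap, however, 94.4% of all regions and 29 of the 33 higher regions, the target among them, meet a region of another table, as do all 1369 lower ones. Of the 10 highest regions outside the cluster 8 do, in up to 7 other tables. A region listed because one side was high there had to differ, so these counts are no measure of how often the guide raised or lowered a site. The same limit holds for the limma p of the HS4 target and of the other called regions. Spearman's rho between ratio and GC was 0.50, 0.51 and 0.39 within the classes.

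The authors' deposited table tags 1 region as off-target for this guide, at HPDL, a gene for a dioxygenase-like enzyme (chr1:45792910-45793209, an exon 492 bp from the start). The guide libraries held 19 and 3 reads there and the sgGal4 libraries 5, 2, 0 and 3, so the groups overlap. The log2 ratio was 0.49 (SD 1.14, n = 2; limma adjusted p = 0.554), and it became -0.53 without guide replicate 1. It ranked 1293 by ratio.

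The guide's sequence is not given in the sources used here, so the target and tagged regions were compared at every NGG. The target region holds 45 places on both strands where 20 bases precede an NGG. The closest of these to any in the tagged region is shown because it differs at 4 of 20 bases, whereas the next closest pair differs at 7. Capitals mark the NGG in both and, in the tagged region, the bases that differ.
Site in the HS4 target, chr11:5309415-5309437, minus strand: tctccctcccattcccgagcAGG
Site in the tagged region, chr1:45793129-45793151, plus strand: tGtccctcccGttcGcgTgcGGG
Counted from 1 at the 5′ end of the HS4 site, the differences are C2G, A11G, C15G and A18T. The middle of the HS4 site lies 19 bp from the centre of the target region. Whether it is the site of the guide was not tested. The site was picked for being the closest to the tagged region, so that region being near it is no finding. Of all other listed regions, 21 (0.336%) were within 4 mismatches of some site of the target. Within 6 mismatches of the site shown there were 46 regions, with log2 ratios from -2.47 to 2.24, a median of 0.16 and 1 called higher. Over all regions the median was -0.38 and 0.529% were called higher. The difference was not tested, and the regions were not matched for GC content, which the ratio followed.

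Matches to the target were also counted without picking a site. For each region the longest run of bases next to an NGG that also stands next to an NGG in the target region was taken. It was 5 to 8 bases in the 10 highest regions outside the cluster, against a median of 6 over all other regions. A run of at least 6 was found in 9 of these 10 and in 54.0% of all other regions, a run of at least 8 in 1 of them and in 8.06%, and a run of at least 10 in 0 of them and in 0.657%. The 10 regions with a run of at least 12 had log2 ratios from -2.94 to 0.82, with a median of -0.16, against -0.38 over all regions. The 10 highest regions had a GC content between 64.0% and 83.3%, against a median of 55.3% over all listed regions. Neither GC content nor the number of NGG places was matched, so these shares show no likeness to the target beyond base composition. They are descriptions without a test.

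The first HS4 guide, sgHS4, has a table of its own, which shares the sgGal4 libraries and was normalised separately, so values are set side by side without a test. Its HS4 region (chr11:5309425-5309724) starts 167 bp after that of sgHS4-sg2 and shares 133 bp with it. It held 12540 and 11786 reads, or 5.62% and 18.6% of the listed reads, against 2.15% and 0.698% for the second guide in its own region. The HS4 region of the pooled guides sgHS1-5 (chr11:5309265-5309564) starts 7 bp from that of sgHS4-sg2 and held between 0.455% and 1.57% of the reads of the 6 pool libraries. No other table lists a region at HS4.

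The highest regions of sgHS4 elsewhere are not listed in the table of the second guide. The 3 highest outside the cluster for sgHS4 were near RNF44, in ABCC11 and in MICAL3, with 4239 and 2255, 2155 and 952, and 1667 and 254 reads in the sgHS4 libraries. None of these and none of the 8 regions tagged off-target in the authors' deposited table of sgHS4 overlaps a region listed for sgHS4-sg2, so they have no value here for the second guide. In the other direction, 4 of the 10 highest regions of sgHS4-sg2 outside the cluster overlap a region of the sgHS4 table. The overlapping sgHS4 regions had log2 ratios of 0.76 at LAPTM4B, 0.59 at RAPGEF5, 1.08 at SRSF10 and 0.91 at LMBR1. For these limma's adjusted p was 0.417 or more. The overlaps are partial. At LMBR1 the sgHS4 region starts at 156686009 and the sgHS4-sg2 region ends at 156686038.

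Genes of the globin system were followed through lists, with a region counted for a gene when its nearest start was within 10 kb. Of 5 beta-globin genes 1, HBG1, had a region, described above, and of 5 alpha-globin genes none had one. Of 18 erythroid regulators 5 had a region, and limma called 0 of the 5, too few to set against the shares of 0.529% and 21.9% over all regions. Their median log2 ratio was -0.30, against -0.38 over all regions. The highest was at the start of CBFA2T3, a corepressor gene (chr16:89007402-89007701), with 7 and 14 guide reads against 0, 3, 0 and 2 and a ratio of 1.05 (limma adjusted p = 0.263). Of 9 heme synthesis genes ALAD alone had a region, with 1 and 5 reads against 5, 7, 3 and 0 and a ratio of -0.82 (limma adjusted p = 0.337).

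Of 10 red cell membrane genes 3 had 5 regions. None of the 5 was called by limma, too few to set against the shares of 0.529% and 21.9% over all regions. Their ratios ran from -1.31 to 0.79, both extremes nearest to EPB41, the protein 4.1 gene. Of 9 architectural genes CTCF had 1 region, and it was called higher. This 1 region gives no share to set against the 0.529% over all regions. The guide libraries held 11 and 19 reads there and the sgGal4 libraries 2, 1, 0 and 0, with a log2 ratio of 2.03 (SD 0.84, n = 2; limma adjusted p = 0.0463). The CTCF call was lost without either guide library, without sgGal4 replicate 1 or 2, and on recovered reads plus 1 or plus 5. The CTCF ratio was 1.31 without guide replicate 2 and 0.68 with levels centred on GC content (limma adjusted p = 0.343 and 0.490). Of the ribosomal protein genes 33 had 35 regions with a median ratio of 0.15. None was called higher by limma, against 0.529% of all regions, and 1 was lower, against 21.9%. Most of the 35 regions, 29, lay within 1 kb of a start. Of these 29, limma called 0 higher and 0 lower, against 1.26% and 2.99% of all promoter regions. They are too few to set apart from those shares. The 1 lower region of the 35 was intergenic, 4929 bp from the start of RPL19, with a ratio of -2.15 (limma adjusted p = 0.0181). The highest, at the start of RPS15, held 13 and 14 reads against 7, 7, 1 and 0, with a ratio of 1.04 (limma adjusted p = 0.158).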

How the data were processed

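For CAPTURE-ChIP-seq, the submitters' processing notes name Bowtie 1.0.0, Picard and the build hg19, and reads with a unique place were kept, per the labels' protocols. No source used here gives the peak caller, the choice of regions or the normalisation. The authors deposited log2 levels for each library and region, normalised within a table. The authors' log2 ratio was recomputed and differed by at most 1.02e-09. Each column is a linear rescaling of log2 whole numbers, and 1 was subtracted from these to give reads. All values were whole within 0.01, or within a wider tolerance in proportion to the value where values were large. Reads in the listed regions, which are not the depth of a library, were 52402 and 34377 for sgHS4-sg2 and 49706, 88493, 8816 and 8548 for sgGal4, with 32.4% and 30.3% of regions at 0 reads in sgGal4 replicates 3 and 4.

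Since the deposited levels are log2 values, regions were tested with limma 3.58.1 under R 4.3.3 (empirical Bayes, no trend, Benjamini-Hochberg over all 6242 regions). On simulated data for this comparison with 200 changed regions among 6242, 33% of those raised by 2 on the log2 scale and 100% of those raised by 4 were recovered, with normal noise that favours the fit. Starts are counted from 1. Genes came from GENCODE 44 as lifted to GRCh37 (protein-coding transcripts), whose coordinates are those of hg19, and sequences from GRCh37. Named were the target, regions within 100 kb, tagged regions, the 10 highest, the 5 lowest, the 5 smallest p in each direction, called or highest regions of the gene lists, and the 3 highest of sgHS4. The cluster is the 100 kb on either side of the target. The members and lists were chosen with earlier results of these data known. The 2 sequences with CpG in capitals and the closest NGG site were chosen after their values were seen.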

Additional observations from a re-analysis of the deposited data

How the results depend on the processing

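The log2 ratio at HS4 stayed positive and ranked first in every fit, and it was 9.03 without the shallow sgGal4 replicates 3 and 4. It did not pass the limma adjusted p of 0.05 on recovered reads plus 1 (6.65), with levels centred on GC content (6.54) or without guide replicate 1 (4.82, adjusted p = 0.0728), and leaving out 1 library gave 4.82 to 7.09. The number of higher regions, 33 as reported, was 0 on recovered reads plus 1, 1 on reads plus 5, 159 with column medians subtracted, 908 without the shallow sgGal4 replicates 3 and 4, 0 with levels centred on GC content, 0 at a p of at most 1e-05, and 0 to 67 leaving out 1 library. The number of lower regions, 1369, was 0 on recovered reads plus 1 and plus 5, 539 with the filter on low levels, 0 with levels centred on GC content, 0 at a p of at most 1e-05, and 0 to 1206 leaving out 1 library. The cause was not tested. Of the 33 higher regions, 7, 6, 19 and 24 were called without sgGal4 replicates 1 to 4, and 29 without replicates 3 and 4. Among the gene lists 1 region was lower within 10 kb of a start and 0 within 1 kb.

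With the replicate number as a block, 988 regions were higher and 1622 lower, and the HS4 difference was 8.66. The labels do not say that a number marks a shared batch, and the block leaves the contrast to replicates 1 and 2. Deviations of same-numbered libraries correlated by 0.0077 and -0.0209. With 2 guide libraries their deviations mirror each other, so these correlations cannot settle whether a number marks a batch.

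Signs turned for 5 named regions, of which PTPRU alone was called as reported. CBFA2T3 went to -0.41, HBG1 to 0.19, HPDL to -0.48 and PTPRU to -0.19 with levels centred on GC content, and leaving out 1 library gave -0.53 to 1.30 at HPDL and -0.24 to 1.01 at OR51V1, both lowest without guide replicate 1. The median region held 1 read in sgGal4 replicates 3 and 4, so that 1 read more or less moves their levels. The fits without sgGal4 replicates 3 and 4 and with GC centring were chosen after seeing the data.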

Other observations

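Some genes of regulatory interest were among the higher regions that the named set leaves out, and they were chosen here after their values were seen. The start of WEE1, a kinase gene that restrains entry into mitosis, had a log2 ratio of 1.77 (limma adjusted p = 0.0479), and an intron at RUNX2, a Runt-domain factor gene, one of 1.87 (0.0321), while another intron region at RUNX2, with 27.3% GC, was lower at -2.96 (0.00681). SP5, a zinc-finger factor gene, reached 1.67 (0.0343) and DRD4, a dopamine receptor gene, 1.59 in an exon (0.0331). The 4 higher regions have a GC content between 70.3% and 74.7%, and with levels centred on GC content no region of the table was called by limma.

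The relation of ratio to GC content was not of one strength over the series. Spearman's rho across regions was 0.72 in the sgHS4-sg2 table, behind 2 of the 17 tables, those of the second guides sgHS5-sg2 (0.76) and sgHBG-sg2 (0.74), and it was 0.48 for sgHS4 and 0.11 for sgHBB, the lowest. The tables share the sgGal4 libraries and list different regions, and these differences were not tested.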
